A study of Mus musculus with 2 samples.

Results

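Leukocytes are the immune cells of the ovary, and macrophages are the main kind. This account follows 37 genes that mark them in a table of counts from 1 wild-type and 1 H19KO mouse ovary library. The genes were taken by symbol: markers of all leukocytes, macrophages, dendritic cells, T, B and NK cells and mast cells, without the MHC and complement genes. All 37 had a row among the 24421 rows of the table, and all 37 matched a protein-coding gene of the GENCODE M21 annotation. Both libraries came from ovaries of C57BL/6J mice aged 8 weeks that were not treated. The knockout carries the allele written H19(Δ3), and H19 itself is an imprinted long noncoding RNA. The comparison asks how gene expression in the ovary differs without H19. The labels do not give the zygosity or parental origin of the allele, the number of animals behind a library, or the oestrous stage at dissection.

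Macrophages arise from monocytes and from embryonic precursors, need signals through the receptor Csf1r, and take their identity from the transcription factor PU.1, encoded by Spi1. They bind antibody-coated particles through Fc receptors, whose signals pass through small adaptor proteins with an ITAM, a paired tyrosine motif. In the ovary, macrophages lie in the stroma, around growing follicles and in the corpus luteum, where they clear dying granulosa and luteal cells. T, B, NK and mast cells are scarcer there.

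The wild-type library held 23335131 counts and the knockout library 23041225. With 1 library per genotype there is no replicate check and no test of genotype, and each comparison describes these 2 libraries. Every interval below is a 95% exact binomial interval of the knockout to wild-type ratio and covers counting error only. H19 had 672 wild-type and 0 H19KO counts, at least 223-fold lower when a count of 0 is taken to allow 3 counts. Of 14 ovarian markers, all were measured in both libraries, led by the steroidogenic genes Hsd3b1, Cyp11a1 and Star. Their summed level was 16755 CPM in wild type against 15858 in H19KO, where CPM is the count scaled for library size by TMM.

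Most macrophage markers were modestly higher in the knockout library. Of the 37 genes, 29 had a mean of at least 1 CPM and are called measured. The whole interval lay above a log2 ratio of 0 for 20 of the 29 (69.0%) and below 0 for 2 (6.90%). Over all 13928 genes of at least 1 CPM the shares were 22.2% above and 24.0% below. The median log2 ratio of the 29 was 0.34, beside -0.01 for all measured genes. No marker had an interval wholly beyond 2-fold, where 0.610% of all genes were higher and 0.388% lower. Because a deeper gene has a narrower interval, the counts were also read by level. Between 10 and 100 CPM, 12 of 13 markers lay above 0 and 1 below, against 21.6% and 25.4% of all genes in that range. Between 1 and 10 CPM, 7 of 15 lay above and 1 below, against 15.8% and 13.8%. Lyz2, the 1 marker of at least 100 CPM, lay above 0, where 33.2% of such genes lay above and 34.2% below. Cd209a and Cpa3 reached the minimum only through the knockout library and so had to be higher there. Of the 27 markers with at least 1 CPM in both libraries, 18 lay above 0 and 2 below, against 22.1% and 24.1% of all 13641 such genes. In whole-tissue RNA, more cells of a type and more RNA per cell cannot be told apart.

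**Figure D1:**
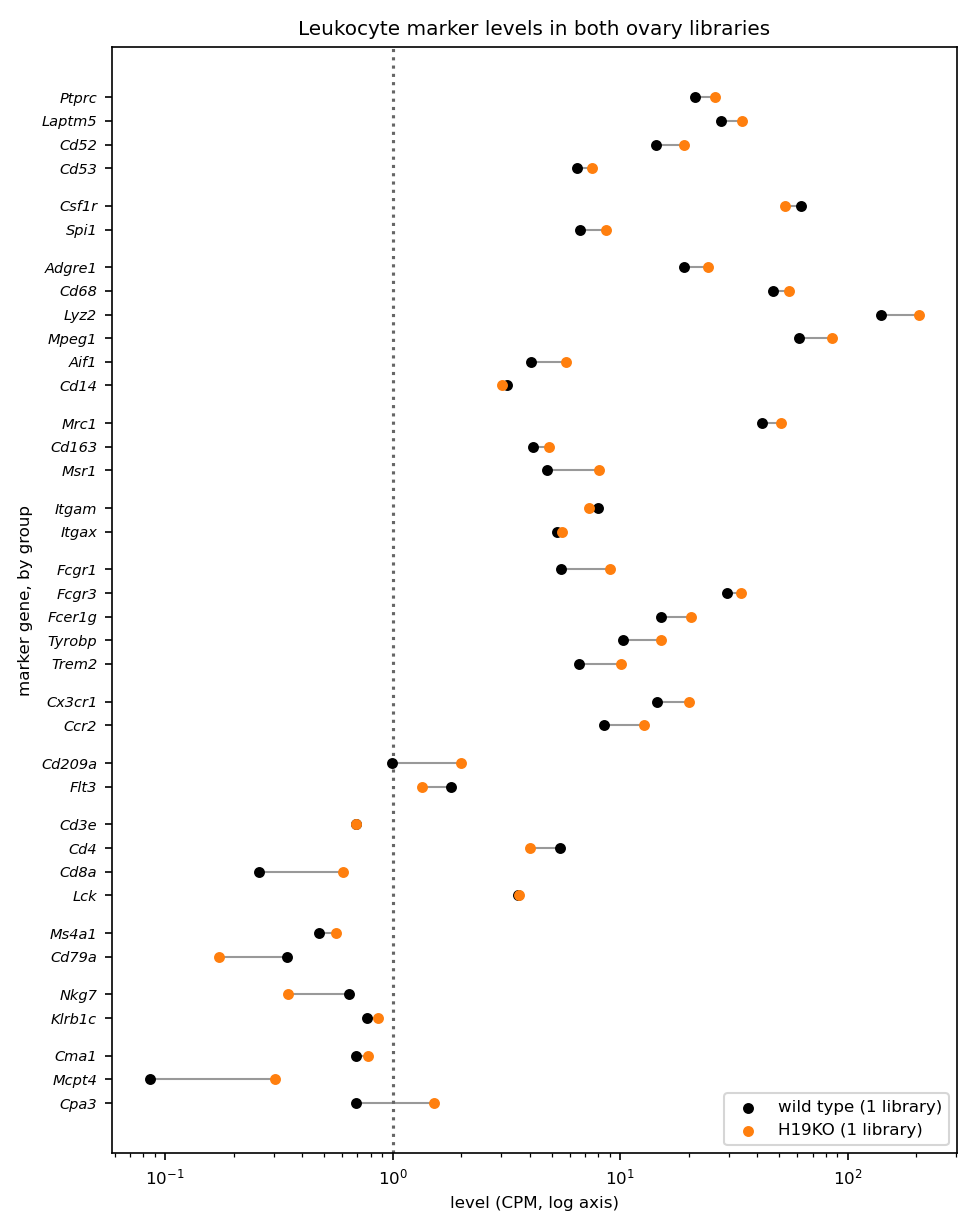
Level of each of the 37 leukocyte markers in CPM on a log axis, black for the wild-type library and orange for the H19KO library, with a dotted line at 1 CPM. Lyz2 is the highest row at 141 and 205 CPM, and most T, B, NK and mast cell genes lie left of the line.

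**Figure D2:**
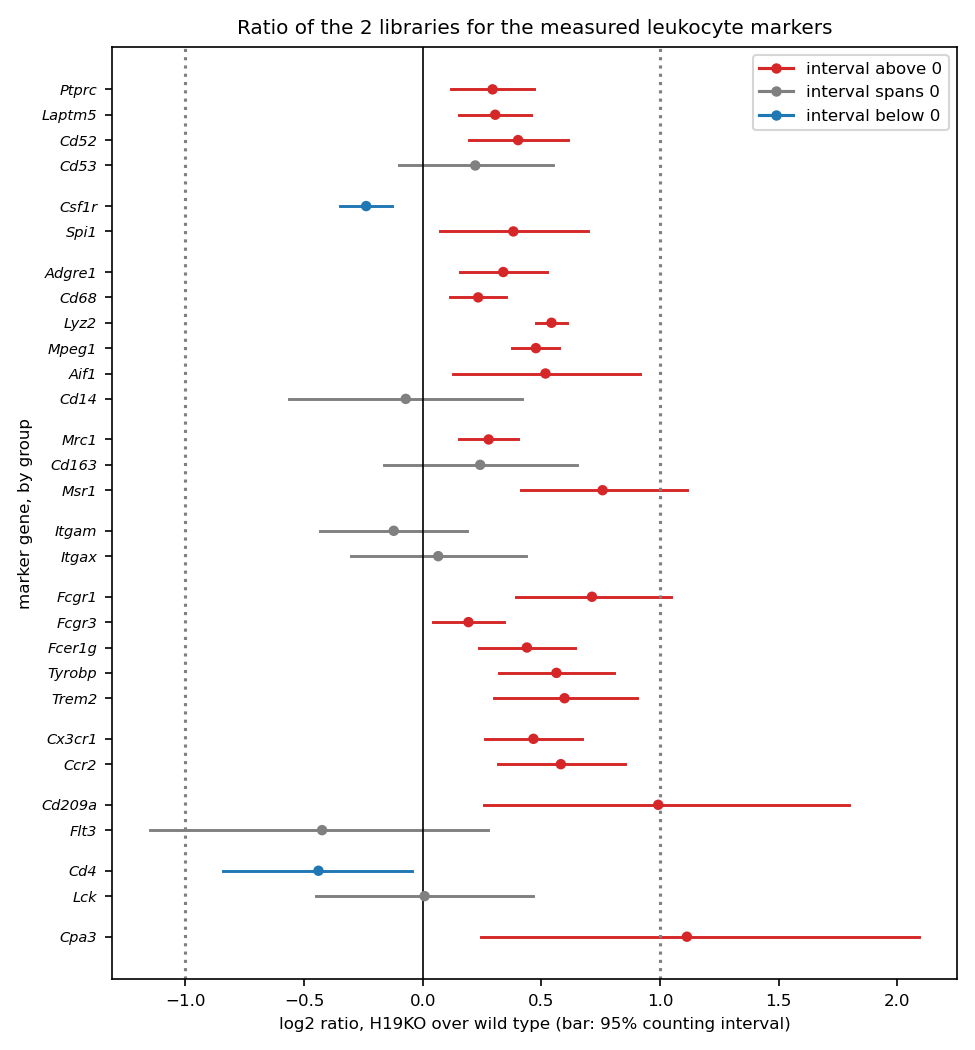
Log2 ratio of the H19KO over the wild-type library for the 29 measured markers, with bars for the 95% counting interval and dotted lines at 2-fold. Red intervals (20) lie above 0, blue intervals (2, Csf1r and Cd4) lie below it and grey intervals (7) span it.

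Of the 4 genes shared by all leukocytes, 3 had intervals above 0. Ptprc, which encodes the tyrosine phosphatase CD45, had 496 wild-type and 605 H19KO counts, a log2 ratio of 0.29 (0.12 to 0.47). Laptm5, a lysosomal membrane protein of blood cells, had 646 and 794 counts (0.31, 0.15 to 0.46). Cd52, a small surface glycoprotein, had 334 and 439 counts (0.40, 0.19 to 0.61), although 172 of its exon bases overlap Crybg2 on the other strand. The tetraspanin gene Cd53, with 150 and 174 counts, had an interval that spanned 0 (0.22, -0.10 to 0.55). The 4 genes together stood at 69.9 CPM in wild type and at 87.0 in H19KO.

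All 5 Fc receptor and ITAM genes had 95% intervals above 0, and 4 of them, without Fcgr3, had 99% intervals above 0. Fcgr1, the high-affinity receptor for IgG (GRCm38, chr3:96282909-96293969, minus strand), had 128 wild-type and 209 H19KO counts, a log2 ratio of 0.71 (0.39 to 1.04). Fcgr3, a low-affinity activating receptor, had 688 and 782 counts and the smallest ratio of the group at 0.19 (0.04 to 0.34). Of the 76-base stretches in its transcripts, 5.31% also occur in Fcgr2b. Set directly against each other, the Fcgr1 to Fcgr3 count ratio was 0.186 in wild type against 0.267 in H19KO, a difference of 0.52 log2 units (0.16 to 0.89). The pair was chosen with results of these data known. Its genes had the largest and smallest ratios of the group, so the interval does not allow for that choice. The adaptor Fcer1g, which carries the signals of both receptors, had 350 and 472 counts (0.44, 0.24 to 0.64). Tyrobp, the adaptor also called DAP12, had 238 and 350 counts (0.56, 0.32 to 0.81). Trem2, a lipid-sensing receptor that signals through Tyrobp, had 154 and 232 counts (0.60, 0.30 to 0.90). There were 0.647 Trem2 counts per Tyrobp count in wild type and 0.663 in H19KO, a difference whose interval spanned 0 (-0.36 to 0.43).

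Promoter sequence was examined because PU.1 regulates many of the myeloid genes, and because Fcgr1 is a classical interferon-gamma target. The RefSeq promoter table (GRCm38.p6, the mm10 assembly) held 28 of the 37 genes, and the 250 bases before each start of transcription were searched on both strands. Many of these windows held annotated exon bases, with the most in Cx3cr1 (all 250), Ccr2 (233) and Laptm5 (191). For Cd163, Cd3e, Cd68 and Mpeg1 the bases just after the start matched no annotated transcript of the gene. Fcgr3, Lck and Ptprc had more than 1 window and counted when any window held the motif. GAGGAAGT, a long form of the PU.1 motif, was in 0 of the 28, and in 2.79% of the 27025 genes of the table. GAGGAA, its shorter core known as the PU box, was in 15 of 28 (53.6%), against 25.9% of all genes. It was in 10 of 19 myeloid and pan-leukocyte genes, in 5 of 6 lymphocyte genes and in 0 of 3 mast cell genes. TTCNNNGAA, the interferon-gamma element called GAS, was in 2 of 28, Fcgr1 and Nkg7, against 8.13% of all genes. The last 2 motifs were chosen after the first had been found in none, and every GAGGAAGT contains GAGGAA. Below are Fcgr1 and Trem2, whose intervals lay above 0, and Itgam, whose interval did not, chosen after their values were seen from windows free of annotated exons. Capitals mark GAGGAA or its complement TTCCTC, and TTCNNNGAA. They are read 5′ to 3′ on the gene's strand, from chr3:96293970-96294219 (minus strand) for Fcgr1, chr17:48346151-48346400 (plus strand) for Trem2 and chr7:128062390-128062639 (plus strand) for Itgam.
Fcgr1: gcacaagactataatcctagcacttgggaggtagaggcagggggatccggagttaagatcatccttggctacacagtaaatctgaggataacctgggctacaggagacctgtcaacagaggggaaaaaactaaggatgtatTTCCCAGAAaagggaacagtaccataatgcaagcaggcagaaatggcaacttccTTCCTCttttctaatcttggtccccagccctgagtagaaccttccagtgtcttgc
Trem2: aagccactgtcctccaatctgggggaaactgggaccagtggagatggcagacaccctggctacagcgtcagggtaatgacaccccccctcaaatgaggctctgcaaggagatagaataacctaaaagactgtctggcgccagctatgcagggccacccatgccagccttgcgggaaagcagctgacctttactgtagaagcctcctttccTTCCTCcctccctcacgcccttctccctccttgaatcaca
Itgam: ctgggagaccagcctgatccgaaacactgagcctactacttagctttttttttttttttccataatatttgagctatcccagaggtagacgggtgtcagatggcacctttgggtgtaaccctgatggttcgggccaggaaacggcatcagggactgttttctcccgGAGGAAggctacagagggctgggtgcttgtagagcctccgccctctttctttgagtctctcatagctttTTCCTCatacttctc
Itgam held 2 copies of the PU box and Trem2 and Fcgr1 held 1 each, so genes above 0 and a gene that spanned it both held the motif. A match is only a run of letters, and binding was not measured.

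Interferon-response genes were far higher in the knockout library, and their part in the Fcgr1 value or in any other marker here was not tested. Of 22 genes on that list, 21 had an interval above 0 and 1 spanned it. Their summed level was 850 CPM in wild type and 2331 in H19KO. The guanylate-binding protein gene Gbp2 had 1698 and 5603 counts (1.73, 1.65 to 1.81).

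Of the 6 macrophage surface and lysosome genes, 5 had intervals above 0. Lyz2, the lysozyme of macrophages and granulocytes (GRCm38, chr10:117277331-117282321, minus strand), had 3268 wild-type and 4734 H19KO counts, a log2 ratio of 0.54 (0.48 to 0.61), or 1.46-fold. Its near copy Lyz1, which shares 5.80% of its 76-base stretches, had only 3 and 9 counts. Mpeg1, the pore-forming protein perforin-2, had 1424 and 1971 counts (0.48, 0.38 to 0.58). Cd68, a late endosomal glycoprotein, had 1093 and 1278 counts (0.23, 0.12 to 0.35), an interval that lay under those of Lyz2 and Mpeg1. Adgre1, the adhesion receptor recognised by the F4/80 antibody, had 445 and 560 counts (0.34, 0.16 to 0.52). Aif1, the actin-binding protein IBA1, had 94 and 134 (0.52, 0.13 to 0.92). Cd14, the co-receptor for bacterial lipopolysaccharide, spanned 0, with 74 and 70 counts (-0.07, -0.56 to 0.42).

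Csf1r, the receptor that macrophages need to survive, was the only 1 of the 26 myeloid and pan-leukocyte markers with an interval below 0. It had 1451 wild-type and 1223 H19KO counts, a log2 ratio of -0.24 (-0.35 to -0.13). Its exons overlap those of Hmgxb3, a gene on the other strand, over 873 of 5774 bases. Hmgxb3 had 1385 and 1171 counts, a log2 ratio of -0.23, and the strand setting of the counting is not given in the sources used here. The part of Hmgxb3 reads in the Csf1r value was not tested. Per Csf1r count there were 2.25 Lyz2 counts in wild type and 3.87 in H19KO. The same ratio was 0.981 and 1.61 for Mpeg1 and 0.164 and 0.286 for Tyrobp. These gene pairs were chosen with results of these data known. Spi1, which encodes PU.1, had 155 and 201 counts and an interval just above 0 (0.38, 0.07 to 0.69). Of the 2 ligands of Csf1r, Csf1 had 549 and 727 counts (0.41, 0.25 to 0.58) and Il34 had 97 and 114 (0.24, -0.16 to 0.65). Csf1 and its receptor thus lay on opposite sides of 0, with 2.64 Csf1r counts per Csf1 count in wild type against 1.68 in H19KO.

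Scavenger receptors take up modified lipoproteins, haemoglobin complexes and glycoproteins. Msr1, the class A scavenger receptor, had 111 wild-type and 187 H19KO counts, a log2 ratio of 0.76 (0.41 to 1.11). Mrc1, the mannose receptor CD206, was more abundant and closer to equal, with 977 and 1178 counts (0.28, 0.15 to 0.40). The Msr1 to Mrc1 count ratio was 0.114 in wild type against 0.159 in H19KO, a difference of 0.48 log2 units (0.11 to 0.86). That pair too was chosen with results of these data known. Cd163, the haemoglobin-haptoglobin receptor, had 96 and 113 counts (0.24, -0.16 to 0.65), so a difference was not detectable at this depth.

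Both chemokine receptor genes had intervals above 0, and neither integrin gene did. Cx3cr1, the fractalkine receptor of monocytes and resident macrophages, had 339 and 466 counts (0.47, 0.26 to 0.67). Ccr2, which draws monocytes out of the blood, had 198 and 295 counts (0.58, 0.32 to 0.85). The Ccr2 to Cx3cr1 ratio differed by 0.12 log2 units with an interval of -0.22 to 0.46. Itgam, the CD11b integrin chain, had 185 and 169 counts (-0.12, -0.43 to 0.19). Of its 76-base stretches, 65.2% also belong to the overlapping gene model Gm49368, so its counts depend on how shared reads were assigned. Itgax, the CD11c chain, had 123 and 128 counts (0.07, -0.30 to 0.43). Their common partner Itgb2 had 409 and 534 counts (0.39, 0.20 to 0.58).

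**Figure D3:**
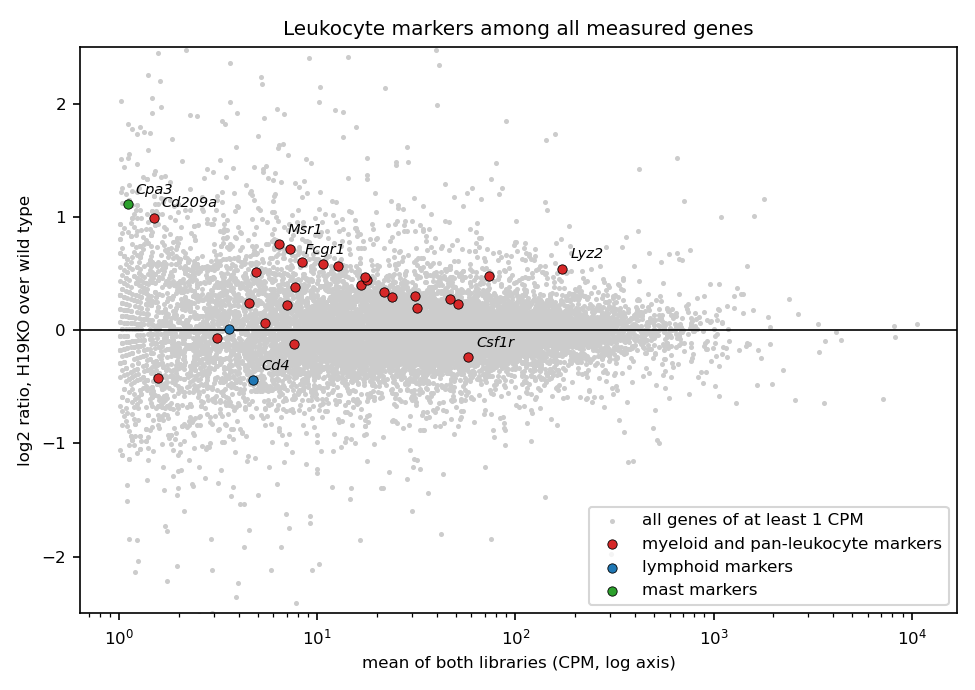
Log2 ratio of H19KO over wild type against mean level in CPM (log axis) for all 13928 measured genes in grey and the 29 measured leukocyte markers in colour, each point 1 gene. Most red points lie above 0 while Csf1r and Cd4 lie below, and 23 genes fall outside the plotted range.

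Dendritic, lymphocyte and mast cell markers were low and gave little precision. Cd209a, a C-type lectin of monocyte-derived dendritic cells, had 23 and 46 counts (0.99, 0.26 to 1.80). Flt3, the receptor for the dendritic cell growth factor, had 42 and 31 counts (-0.42, -1.15 to 0.27), while its ligand Flt3l had 62 and 105 (0.76, 0.30 to 1.25). Among T cell genes, the co-receptor gene Cd4 was lower in the knockout library, with 127 and 93 counts (-0.44, -0.84 to -0.04). With a 99% interval Cd4 spanned 0 (-0.97 to 0.08). Lck, the kinase that binds CD4 and CD8, had 83 counts in each library (0.01, -0.45 to 0.47). Cd3e, a chain of the T cell receptor complex, had 16 counts in each, and Cd8a had 6 and 14. The B cell genes Ms4a1 (CD20) and Cd79a (a B cell receptor chain) had 11 and 13, and 8 and 4 counts. The NK cell genes Nkg7, a granule protein, and Klrb1c, the NK1.1 antigen, had 15 and 8, and 18 and 20. Summed over all 8 lymphocyte genes there were 284 wild-type and 251 H19KO counts, an interval of -0.42 to 0.08. Most of these counts came from Cd4 and Lck, which per kilobase of exon stood well above Cd3e in both libraries. Mast cell proteases gave Cpa3 at 16 and 35 counts (1.11, 0.25 to 2.09), Cma1 at 16 and 18, and Mcpt4 at 2 and 7. Cpa3 thus stood apart from Cma1 in point value, but their ratio differed by 0.95 log2 units with an interval of -0.47 to 2.39.

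Ptprc was next used as a denominator, since it marks every leukocyte and a ratio of 2 genes within a library needs no scaling factor. Of 28 other measured markers, 22 had an interval that spanned 0, among them Adgre1 (0.05, -0.21 to 0.30), Cd68 (-0.06, -0.27 to 0.15) and Mrc1 (-0.02, -0.23 to 0.20). For these, a difference in proportion to Ptprc was not detectable at this depth. The same count was not made over all measured genes, so 22 of 28 is not read as particular to these markers. Lyz2 had 6.59 counts per Ptprc count in wild type and 7.82 in H19KO, a difference of 0.25 log2 units (0.06 to 0.43). Msr1 (0.47, 0.08 to 0.86) and Fcgr1 (0.42, 0.05 to 0.79) also lay above 0. Csf1r (-0.53, -0.74 to -0.33), Cd4 (-0.74, -1.18 to -0.30) and Itgam (-0.42, -0.77 to -0.06) lay below. An interval that spans 0 does not show that 2 genes kept the same proportion, and for Cd14, Cd209a, Flt3 and Cpa3 it was over 1 log2 unit wide.

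**Figure D4:**
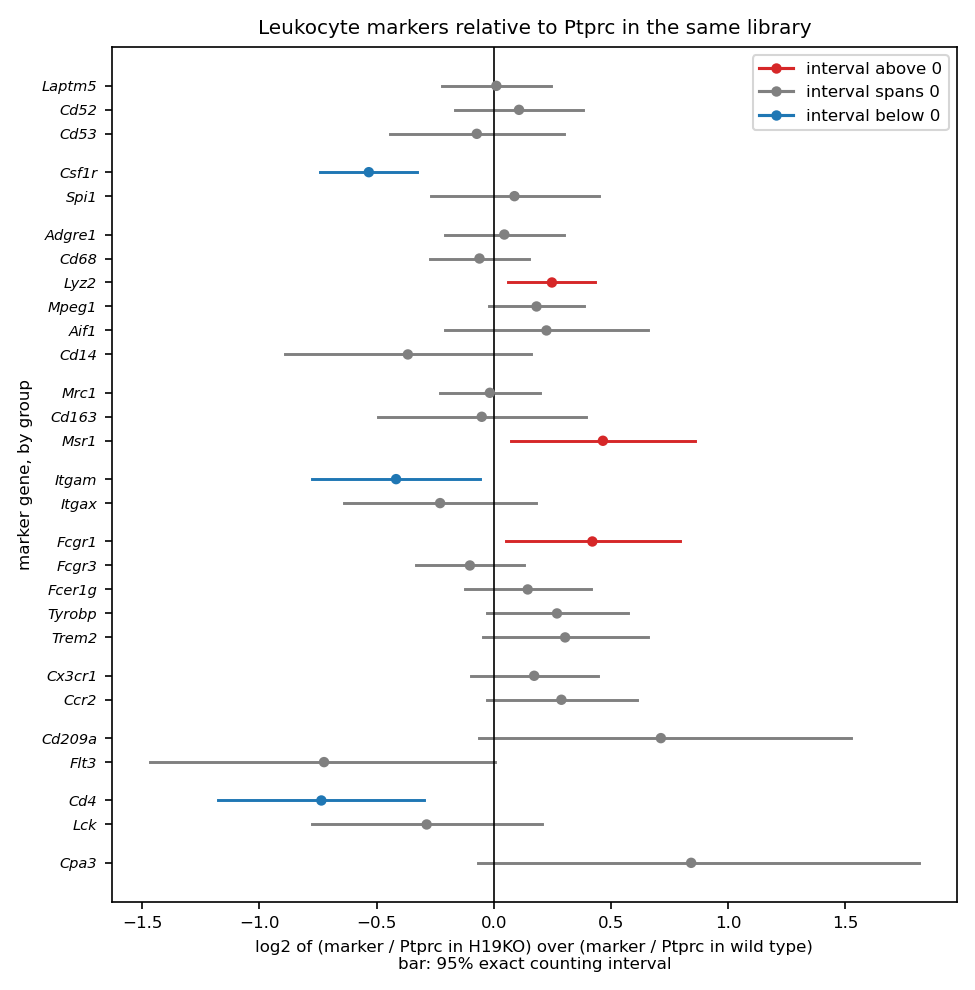
Log2 change, H19KO over wild type, of each marker's count divided by the Ptprc count of the same library, with 95% exact counting intervals. Of 28 markers, Lyz2, Msr1 and Fcgr1 (red) lie above 0 and Csf1r, Itgam and Cd4 (blue) below it, and 22 (grey) span it.

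Per kilobase of exon, Lyz2 was the most abundant marker in both libraries, at 107 CPM per kilobase in wild type and 156 in H19KO. Cd68 followed at 37.4 and 44.0. Fcer1g, Tyrobp, Fcgr3 and Mpeg1 came next and lay close together, between 14.1 and 17.2 in wild type and between 19.5 and 23.4 in H19KO. Csf1r stood at 10.8 and 9.16, and Ptprc, whose annotated exons span 18313 bases, at 1.16 and 1.43. These levels use the union of all annotated exons and so understate genes with long, rarely used exons.

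Other leukocyte genes were read from lists that hold none of the markers above. Of 90 measured genes on 12 lists, 47 had an interval above 0, 14 below and 29 spanning it, with a median log2 ratio of 0.30. The shares of all measured genes were 22.2% above and 24.0% below. Of the 84 listed genes with at least 1 CPM in both libraries, 44 lay above 0 and 14 below, against 22.1% and 24.1% of all such genes. Lysosome and lectin genes were mostly higher, with 9 of 10 above 0. The cathepsin genes Ctss and Ctsc had log2 ratios of 0.62 (0.53 to 0.70) and 0.70 (0.59 to 0.81), and the acid lipase Lipa 0.50 (0.43 to 0.58). The most abundant, Lamp1, had only 0.19 (0.16 to 0.22), and these genes are also expressed outside leukocytes. Of the NADPH oxidase and cytoskeleton genes, 8 of 12 lay above 0 and none below. The catalytic oxidase subunit Cybb had 590 and 1042 counts (0.83, 0.68 to 0.98), while its membrane partner Cyba had 663 and 659 (-0.00, -0.16 to 0.16).

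Among the partners of the Fc and ITAM receptors, 10 of 17 measured genes lay above 0 and 2 below. The phosphatase Ptpn6 had 261 and 415 counts (0.68, 0.45 to 0.91), and the activating receptor Fcgr4 had 116 and 214 (0.89, 0.56 to 1.23). Syk, the kinase that docks on a phosphorylated ITAM, was lower with 774 and 684 counts (-0.17, -0.32 to -0.02). So was Fcgr2b, the inhibitory IgG receptor, with 610 and 478 (-0.34, -0.52 to -0.17).

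Myeloid transcription factors had 4 of 10 above 0 and 4 below. Irf8 had 477 and 643 counts (0.44, 0.27 to 0.61) and Ikzf1 108 and 155 (0.53, 0.17 to 0.90), whereas Maf had a log2 ratio of -0.22 (-0.30 to -0.14) and Cebpb -0.27 (-0.39 to -0.16). Tissue-resident macrophage genes had 6 of 12 above and 1 below. Of the 6, Cd5l reached 1 CPM only through the knockout library and so had to be higher there. The transglutaminase chain F13a1 had 159 and 266 counts (0.75, 0.46 to 1.04). Gas6, a bridging ligand for apoptotic cells and the most abundant gene of that list, had 16125 and 12804 (-0.32, -0.36 to -0.29). The growth factor and receptor list had 2 of 6 above and 1 below, the receptor chain Csf2ra with 707 and 555 counts (-0.34, -0.50 to -0.18).

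Lists of the scarcer leukocytes held few measured genes. Other dendritic genes had 1 of 6 above 0, Cadm1 with 763 and 982 counts (0.37, 0.23 to 0.51). The 3 below 0 were Fscn1 at -0.34 (-0.41 to -0.28), Cd83 at -0.34 (-0.62 to -0.07) and Ly75 at -0.29 (-0.52 to -0.05). Xcr1, with 39 and 51 counts, and Clec9a, with 23 and 38, spanned 0. Fscn1 had a mean of 149 CPM against 1.57 for the marker Flt3, and the part of other cells in its value was not tested. Other T cell genes had 1 of 6 above, Thy1, with 464 and 638 counts (0.47, 0.29 to 0.64), which fibroblasts also express. Of the B and plasma cell genes, 2 of 4 lay above 0, and Jchain, the joining chain of secreted antibodies, had 35 and 124 counts (1.82, 1.28 to 2.42). Jchain was the only 1 of the 90 genes with an interval beyond 2-fold. Both measured genes of the NK list lay above 0, the granzyme gene Gzmb with 22 and 43 counts and the receptor gene Klrk1 with 16 and 36, but both reached 1 CPM only through the knockout library and so had to be higher there. Of the 3 measured mast cell genes, Kit, which oocytes and theca cells also express, was lower (-0.37, -0.48 to -0.27), as was Gata2 (-0.29, -0.57 to -0.01), and Hdc was higher (0.49, 0.32 to 0.66). Among 11 neutrophil genes only Ltf (-0.27, -0.51 to -0.02) and Mmp9 (1.07, 0.79 to 1.36) were measured. The others were under 1 CPM. S100a8 with 22 and 4 counts, Cxcr2 with 13 and 3 and Ngp with 7 and 0 had intervals below 0. Mmp8 with 1 and 10 counts had an interval above 0, and the rest had none off 0. These low genes were named after their values were seen.

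**Figure D5:**
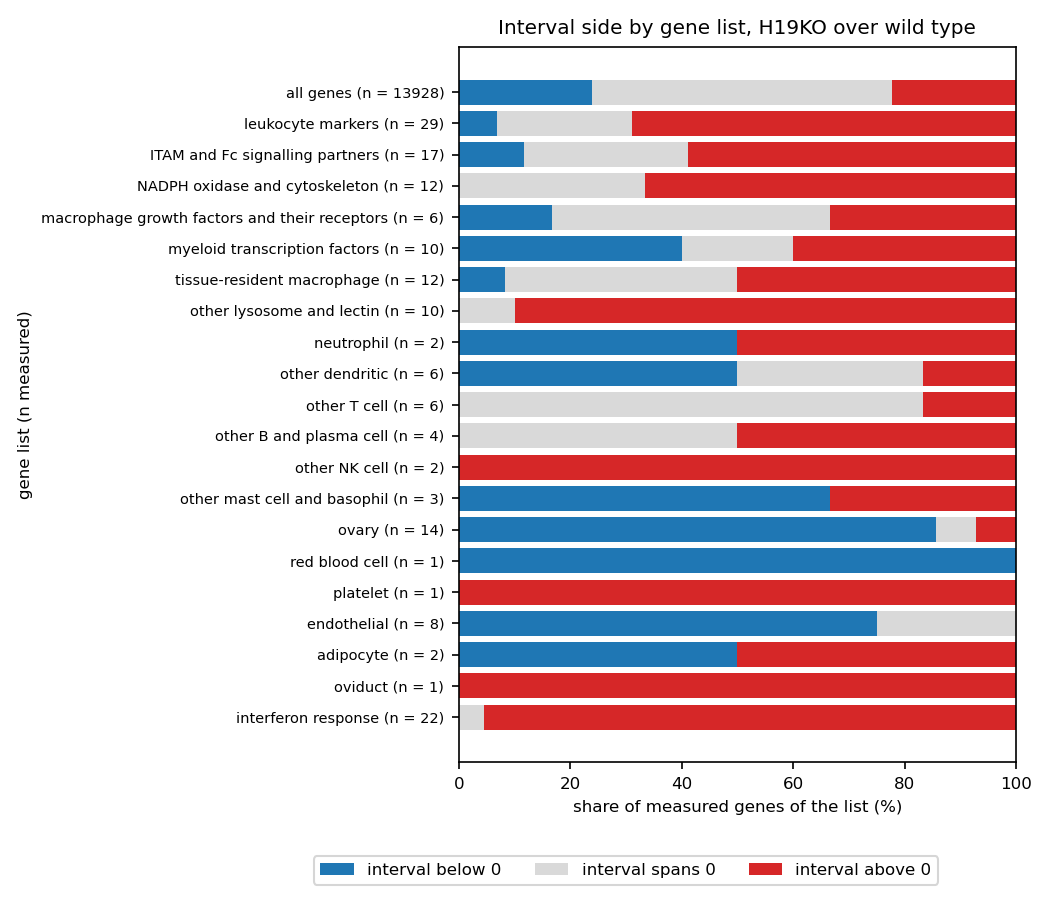
Share of the measured genes of each list whose 95% counting interval lay below 0 (blue), spanned 0 (grey) or lay above 0 (red), H19KO over wild type, with the number measured in brackets. The leukocyte markers have 20 of 29 above 0, the interferon list 21 of 22 and all genes 3094 of 13928.

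Markers of other cells were read beside these values, and their part in them was not tested. Of the 8 endothelial genes, 6 had an interval below 0 and none above, with Pecam1, which leukocytes also express, at -0.36 (-0.44 to -0.28). Their summed level was 693 CPM in wild type and 591 in H19KO. Of the 14 ovarian markers, 12 lay below 0 and 1 above, with a median of -0.41. Beside both lists, 24.0% of all measured genes lay below 0 and 22.2% above. Among genes of 100 CPM and over, the shares were 34.2% and 33.2%. The red blood cell list had 7 rows summing to 93 and 54 counts. The adult globin genes Hba-a1, Hba-a2, Hbb-bs and Hbb-bt had 0 counts in both libraries, and Alas2 had 89 and 44. The platelet list of 5 genes summed to 1.08 and 2.34 CPM, with Itga2b at 15 and 42 counts, which reached 1 CPM only through the knockout library. Adipocyte genes summed to 19.5 and 18.7 CPM, but the 2 measured genes differed in direction. Plin1, most of that sum, had 341 and 253 counts (-0.42, -0.66 to -0.18), and Car3 had 91 and 135 (0.57, 0.18 to 0.98). Cfd, under 1 CPM, had 12 and 33 counts. Oviduct genes summed to 2.37 and 6.53 CPM, and nearly all of that difference was Ovgp1, with 33 and 134 counts. Foxj1 had 11 and 3, Pax8 9 and 9, Tmem212 2 and 5, and Dynlrb2 none.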

How the data were processed

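The deposited table holds whole-number counts per gene symbol, 1 column per library, made by the authors from ribosome-depleted, stranded, paired-end total RNA libraries, per the labels' protocols. The submitters' processing notes name STAR 2.5.0a, Cufflinks 2.2.1, DESeq2 1.0.0 and mm10, without their roles. What counted the reads, against which annotation and on which strand is not given in the sources used here. Nor is it given whether the counts were rescaled before deposit. The intervals assume that they were not, and the median-of-ratios factors of the 2 columns were equal. Rows with dates for symbols (27) stayed in the totals.

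Library sizes were adjusted with the TMM method of edgeR 4.0.16, and 0.5 was added to each scaled count before the log2 ratio was taken. Intervals are exact conditional binomial (Clopper-Pearson) intervals, and those of a ratio between 2 genes are exact conditional intervals of the odds ratio (scipy 1.17.1). A gene was measured at a mean of 1 CPM or more. Coordinates, exon lengths, overlaps and shared 76-base stretches came from GENCODE M21, and promoters from RefSeq. Scripts were tested on simulated data.

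The 37 members, lists and gene pairs were chosen with earlier results of these data known. All 37 members are named. From each other list the text names up to 4 of the most abundant measured genes and up to 4 farthest from 0 by the nearer bound, and from marker lists up to 3 of the most abundant. The genes at 0 in marker lists and a few low genes are named by counts. Some genes that this rule would name are not reported here. Alternatives were total count and median-of-ratios scaling (DESeq2 1.42.0), library size without the 10 most abundant genes, other minimum levels, 5 added to each count, the point ratio, a 99% interval, the mean, and other denominators. Computation used Python 3.11.15 and R 4.3.3.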

Additional observations from a re-analysis of the deposited data

How the results depend on the processing

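No marker's interval changed its side of 0 under total count or median-of-ratios scaling, and all 87 single-gene values under 3 alternatives moved by less than the gene's own interval. The count of markers above 0 ranged from 15 to 24 and their median log2 ratio from 0.29 to 0.38. The 15 were out of only 20 measured markers, those that share no exons or 76 bases with another gene. A minimum of 5 CPM also left fewer markers measured. A 99% interval left 17 above, without Spi1, Fcgr3 and Cpa3, and a minimum of 5 CPM left 17, without Aif1, Cd209a and Cpa3. Cd4 was lost under both. The count below 0 was 1 with a minimum of 5 CPM, 1 with a 99% interval, 5 by the point ratio and 1 without the 14 markers that share exons or 76 bases with another gene, the last chosen after the data were seen. By the point ratio 1 marker, Cpa3, lay beyond 2-fold higher. The median of the lymphocyte genes, -0.22 over 2 measured genes, turned to 0.00786 over all 8 without a minimum level, and a minimum of 5 CPM left none. With Laptm5 or the 4 pan-leukocyte genes as denominator 7 and 8 markers stood off 0, and Flt3 joined those below in both. No paired analysis was possible because there was only 1 library of either genotype, which also leaves none to omit. The planned search of proteins for an ITAM was not run, as no protein table was used here. Depth limits the scarcer cells: the median interval was 0.95 log2 units wide for 8 markers of 1 to 5 CPM and 0.25 for 9 of 20 CPM or more.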

Other observations

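The activating and inhibitory receptors for IgG differed in direction, a comparison chosen after their values were seen. The Fcgr1 to Fcgr2b count ratio was 0.210 in wild type and 0.437 in H19KO, a difference of 1.06 log2 units (0.69 to 1.43). For Fcgr4 it was 0.190 and 0.448 (1.23, 0.86 to 1.62) and for Fcgr3 1.13 and 1.64 (0.54, 0.30 to 0.77). Fcgr3 and Fcgr2b share some sequence, so the split of reads between these 2 is uncertain.

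Cd4 and Lck were compared with Cd3e by level per kilobase of exon. Cd4 stood 8.03 times as high as Cd3e in wild type and 5.88 times in H19KO, and Lck 7.23 times in both. Cd3e had only 16 counts in each library, so these factors are imprecise.

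Csf1r and Hmgxb3, which overlap on opposite strands, had nearly the same ratio of counts in both libraries, 1.05 in wild type and 1.04 in H19KO. The difference was -0.00 log2 units (-0.16 to 0.15).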
